A study of Mus musculus with 2 samples.

Results

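The class III POU genes *Pou3f1*, *Pou3f2*, *Pou3f3* and *Pou3f4* were described in the cell classes of the embryonic mouse cortex. They were taken by symbol and are 4 of the 32285 genes listed in the count tables. Their transcripts were counted by single-cell RNA sequencing in 2 libraries of cerebral cortex from WT embryos at embryonic day (E) 16.5. Per the labels both come from control animals of an *Eomes-Cre* line ("EomesDot"), and the study describes the mice as C57BL/6J. The study was concerned with signalling by SST+ cortical interneurons (cINs) towards progenitors. All samples are untreated WT, and every comparison therefore lies between cell classes of the same libraries. The labels do not say whether each library came from 1 embryo or from several. The p-values measure only how far class differences varied between these 2 libraries, with the spread estimated over all class sums fitted together. That spread may be technical. The libraries are called replicate 1 and replicate 2, and paired values below are given in that order.

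POU factors bind DNA with a POU-specific domain and a homeodomain joined by a linker, and the octamer is their textbook site. *Pou3f1* (Oct6) is best known from myelinating Schwann cells and from deep projection neurons. *Pou3f2* (Brn2) and *Pou3f3* (Brn1) act in overlapping ways in the production and migration of upper-layer neurons, and *Pou3f2* is used with other factors to turn fibroblasts into neurons. *Pou3f4* (Brn4) is known from the striatum and the inner ear.

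In RefSeq coordinates of GRCm38.p6 (mm10), *Pou3f1* (ENSMUSG00000090125) lies on the plus strand at chr4:124657646-124660655. *Pou3f2* (ENSMUSG00000095139) lies on the minus strand at chr4:22482095-22488366, far from *Pou3f1* on the same chromosome. *Pou3f3* (ENSMUSG00000045515) lies on the plus strand at chr1:42695768-42700210, and *Pou3f4* (ENSMUSG00000056854) on the plus strand at chrX:110814379-110819108. *Pou3f1*, *Pou3f2* and *Pou3f4* have a single exon in GENCODE M39, and *Pou3f3* has up to 4. The same annotation places long non-coding RNA (lncRNA) genes across 3 of the members. *Gm2164* overlaps *Pou3f1* on the opposite strand, and *Gm30731* and *Gm57099* overlap *Pou3f2* on the opposite strand. *Pantr1* and *Pantr2* overlap *Pou3f3* on the opposite strand and *Gm20646* overlaps it on its own strand. No gene overlaps *Pou3f4*. The annotation and the strand setting of the counting are not given in the sources used here, so reads in these overlaps may have been assigned to either gene, and the values of *Pou3f1*, *Pou3f2* and *Pou3f3* are uncertain to that extent.

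The 250 bases before the RefSeq start are shown for *Pou3f2* and *Pou3f3*, whose levels moved together across classes, and for *Pou3f4*, whose levels did not follow them. RefSeq promoters (GRCm38.p6) were matched by symbol for 3 of the 4 members, and *Pou3f1* was not matched. Each sequence runs 5′ to 3′ on the strand of its gene, and capitals mark CCAAT on either strand, written CCAAT or ATTGG.
Pou3f2, chr4:22488367-22488616, minus strand: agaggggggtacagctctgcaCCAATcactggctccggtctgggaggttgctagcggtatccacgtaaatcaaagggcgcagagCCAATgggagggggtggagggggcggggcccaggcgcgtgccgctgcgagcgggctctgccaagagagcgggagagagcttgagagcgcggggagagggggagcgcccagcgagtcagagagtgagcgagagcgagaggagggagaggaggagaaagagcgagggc
Pou3f3, chr1:42695518-42695767, plus strand: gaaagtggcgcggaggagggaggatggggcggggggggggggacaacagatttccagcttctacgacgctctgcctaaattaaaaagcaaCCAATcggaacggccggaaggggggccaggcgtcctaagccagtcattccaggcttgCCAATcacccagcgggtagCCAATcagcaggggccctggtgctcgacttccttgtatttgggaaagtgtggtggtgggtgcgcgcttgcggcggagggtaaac
Pou3f4, chrX:110814129-110814378, plus strand: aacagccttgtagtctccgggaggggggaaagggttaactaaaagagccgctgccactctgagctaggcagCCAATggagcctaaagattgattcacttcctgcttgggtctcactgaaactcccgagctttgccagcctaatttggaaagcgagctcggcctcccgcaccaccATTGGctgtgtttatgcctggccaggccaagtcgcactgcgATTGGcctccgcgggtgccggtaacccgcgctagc
The promoters of *Pou3f2*, *Pou3f3* and *Pou3f4* held 2, 3 and 3 such matches. Of 32851 RefSeq promoters of the same length, 33.8% held at least 1 match, 10.1% at least 2 and 2.79% at least 3. The octamer ATGCAAAT, searched on both strands, was not among the letters of the 3 windows, and 1.60% of all promoters held it. TATAAA, searched on both strands, was not found in them either and was held by 12.4% of all promoters. The 3 windows had a GC content of 66.8%, 60.8% and 58.0%.

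Of 9049 and 13556 barcodes, 5966 and 10247 cells had 1500 to 60000 unique molecular identifiers (UMIs) and under 10% mitochondrial UMIs. They held 39274402 and 59319842 UMIs, with medians of 5706 and 4938 per cell, and the 2 libraries shared 40 barcodes. Cells were sorted into classes by marker genes without any *Pou3f* gene. In each library, 20 cells or more were found for 14 neural classes: radial glial cells (RGCs), *Eomes*+ intermediate progenitor cells (IPCs), migrating, upper-layer, layer 5 and layer 6 neurons, *Zbtb20*-high neurons, Cajal-Retzius cells, progenitors with *Olig* genes, cycling GABAergic progenitors, interneurons of the medial (MGE) and caudal (CGE) ganglionic eminence, lateral (LGE)-type cells and striatal projection neurons. Although the labelled tissue is cerebral cortex, 307 and 474 cells passed the striatal gate. Of 33 marker genes kept out of the gates, 20 ranked first among the classes in both libraries and 31 lay above the median of the other classes. The exceptions were *Lpl* in upper-layer neurons and *Pcp4* in layer 5 neurons, where it ranked as low as 14 of 14, and *Plxnd1*, another upper-layer marker, was at 3.33 and 2.67 CPM and ranked as low as 7. The *Zbtb20*-high neurons are named only by their gate gene, since *Sema3c*, *Neurod1* and *Unc5d*, 3 markers of migrating neurons, were among their 10 leading genes. *Ttr* and *Folr1*, known from choroid plexus, were among the leading genes of the progenitors with *Olig* genes, and *Gnrh1* led the striatal class. The subplate gate found 0 cells.

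The 4 genes held 29858 and 41773 UMIs in all kept cells. *Pou3f3* was counted most, with 12599 and 17444 UMIs, followed by *Pou3f2* with 10086 and 13581, *Pou3f1* with 5876 and 8800 and *Pou3f4* with 1297 and 1948. Levels are given as CPM, the UMIs of a gene per 1000000 summed UMIs of a class and library. The 3′ protocol gives a UMI per captured molecule, so CPM is not divided by gene length.

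Cells that are not known to use these genes gave a reference level. Across erythroid, endothelial, mural, fibroblast and microglial cells, *Pou3f1* ranged from 2.46 to 46.7 CPM, *Pou3f2* from 4.93 to 114 CPM, *Pou3f3* from 0 to 122 CPM and *Pou3f4* from 1.83 to 21.9 CPM. The highest values of *Pou3f2*, *Pou3f3* and *Pou3f4* came from the 32 microglial cells of replicate 1, where *Pou3f2* rested on 26 UMIs in 4 cells. Without the cells marked as likely doublets by Scrublet, which were otherwise kept, the non-neural maxima were 35.9 CPM for *Pou3f1*, 43.3 for *Pou3f2*, 65.8 for *Pou3f3* and 7.67 for *Pou3f4*, so the reference depends on whether these cells are kept. *Pou3f1* lay above its non-neural maximum in both libraries in 7 of 14 neural classes, *Pou3f2* in 8, *Pou3f3* in 12 and *Pou3f4* in 6. Without marked doublets in any class these were 9, 12, 13 and 12 classes. A level is read as background only where both libraries lay at or below the maximum either way. This held for *Pou3f1* in RGCs, MGE, CGE and Cajal-Retzius cells, for *Pou3f2* in CGE and Cajal-Retzius cells, for *Pou3f3* in Cajal-Retzius cells, and for *Pou3f4* in layer 6 neurons and Cajal-Retzius cells. The plot of levels by class shows both libraries of each class.

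**Figure D1:**
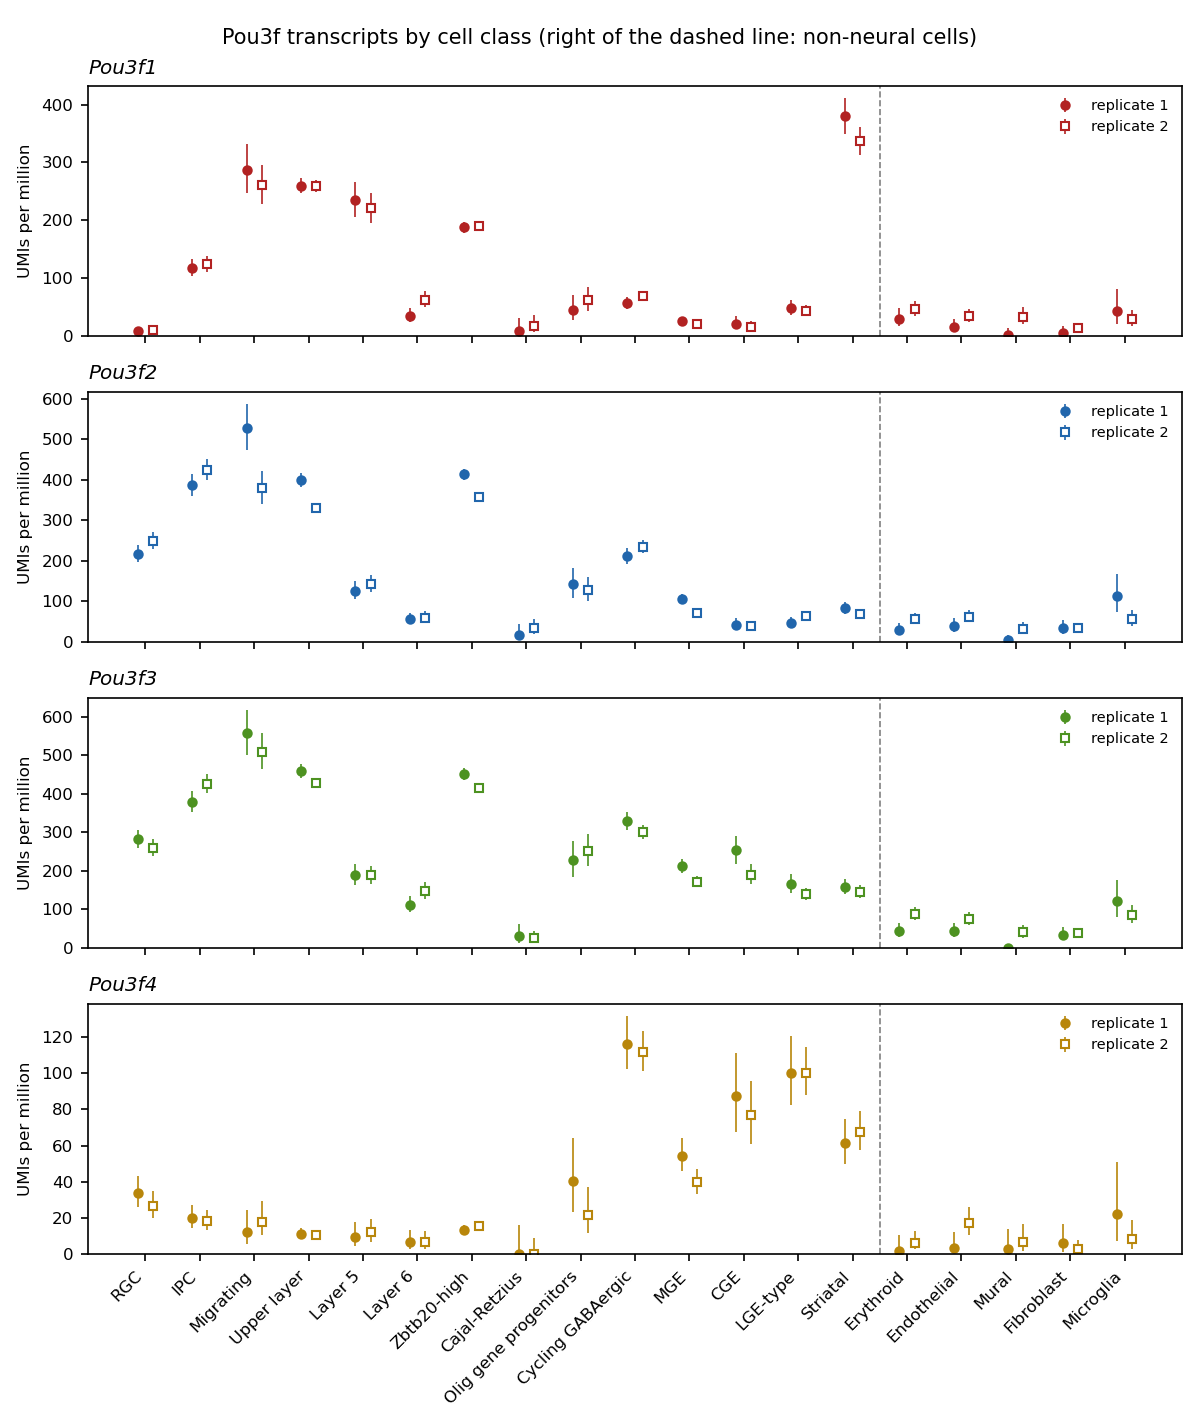
Levels of the 4 genes (CPM, linear axes from 0) in 14 neural and 5 non-neural cell classes. Filled circles are replicate 1, open squares replicate 2 and bars the 95% exact Poisson interval, which covers counting error only. *Pou3f1* peaks in striatal neurons at 379 and 337 CPM, the means of *Pou3f2* and *Pou3f3* are highest in migrating neurons (for *Pou3f2*, IPCs are higher in replicate 2), and *Pou3f4* peaks in cycling GABAergic progenitors at 117 and 112 CPM.

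Each gene had its own order of classes. *Pou3f1* was highest in striatal projection neurons at 379 and 337 CPM, followed by migrating neurons at 287 and 261 CPM, upper-layer neurons at 259.7 and 259 CPM and layer 5 neurons at 235 and 220.5 CPM. The values of the 2 libraries did not overlap between any of these neighbours in the order. *Zbtb20*-high neurons followed at 188 and 189.8 CPM and IPCs at 117 and 124 CPM, again without overlap. Cycling GABAergic progenitors, progenitors with *Olig* genes, layer 6 neurons and LGE-type cells, at 35.2 to 68.7 CPM, overlapped from each to the next. MGE, CGE and Cajal-Retzius cells and RGCs made up the lower end, at 8.62 to 26.0 CPM, within the non-neural range. Every MGE and CGE value lay below every IPC and layer 5 value.

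*Pou3f2* was highest in migrating neurons, IPCs, *Zbtb20*-high and upper-layer neurons, at 330.5 to 529 CPM, and these 4 classes overlapped from each to the next. RGCs (218 and 249.7 CPM) and cycling GABAergic progenitors (213 and 235 CPM) overlapped with each other and lay apart from the classes above and below. Layer 5 neurons and progenitors with *Olig* genes were at 126 to 143 CPM. MGE, striatal, layer 6, LGE-type, CGE and Cajal-Retzius cells lay between 17.2 and 106 CPM, under the non-neural maximum with doublets kept. Without marked doublets only the CGE and Cajal-Retzius cells lay under it.

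*Pou3f3* was the member found most widely. It was highest in migrating neurons at 558 and 510.0 CPM, apart from upper-layer, *Zbtb20*-high neurons and IPCs, which overlapped at 379.6 to 460.2 CPM. Cycling GABAergic progenitors (329 and 301 CPM) and RGCs (282 and 259.5 CPM) followed, apart from each other. Progenitors with *Olig* genes (227 and 252 CPM), CGE interneurons (253 and 191 CPM), MGE interneurons (213 and 172 CPM) and layer 5 neurons (189.7 and 188 CPM) overlapped from each to the next. LGE-type, striatal and layer 6 cells lay at 112 to 166 CPM, and Cajal-Retzius cells at 30.2 and 24.6 CPM.

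*Pou3f4* had another order, with the GABAergic classes on top. Cycling GABAergic progenitors were at 117 and 112 CPM, LGE-type cells at 100.2 and 100.5 CPM, CGE interneurons at 87.5 and 77.0 CPM, striatal neurons at 61.3 and 67.7 CPM and MGE interneurons at 54.3 and 39.7 CPM. The first 4 of these did not overlap with their neighbours. RGCs were at 33.7 and 26.5 CPM. All excitatory neuron classes lay at 6.43 to 17.9 CPM. No *Pou3f4* UMI was found in the 30 and 44 Cajal-Retzius cells, for which a limit of 3 counts gives 12.9 and 7.37 CPM, while the exact two-sided interval in the plot reaches 15.9 and 9.07 CPM.

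To compare shares of cells at a fixed depth, each cell was thinned to 1500 UMIs. *Pou3f1* was then seen in 32.2% and 30.6% of striatal neurons, 39.8% and 33.3% of migrating neurons and 1.44% and 0.680% of RGCs. The exact binomial 95% interval for RGCs of replicate 1 was 0.298% to 4.16%. Thinned erythroid cells, with median depths of 2938 and 3528 UMIs before thinning, gave 4.08% and 3.44%, so the RGC share is read as background. Without thinning, 48.5% and 51.7% of striatal neurons and 6.25% and 7.14% of RGCs had a *Pou3f1* UMI, at median depths of 4227 and 4358.5 UMIs in striatal neurons and 8990 and 6296.5 in RGCs. *Pou3f3* was seen in 56.3% and 52.5% of thinned migrating neurons against 6.12% and 9.92% of erythroid cells. *Pou3f4* was seen in 14.8% and 15.3% of thinned cycling GABAergic progenitors against 0% and 0.382% of erythroid cells. The level of *Pou3f1* in migrating neurons was lower than in striatal neurons while its thinned share of cells was higher, so no order is read between these 2 classes from the share.

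The first comparison followed the pallial lineage from RGCs, the stem cells of the cortical ventricular zone, to IPCs, which divide basally to give neurons. All 4 members differed between these classes, against 30.7% of the 14760 genes tested (14.6% higher and 16.1% lower). *Pou3f1* was at 9.32 and 10.3 CPM in RGCs, resting on 18 and 21 UMIs, and at 117 and 124 CPM in IPCs. Its log2 fold change (FC) was 3.66 ± 0.21 (SE, n = 2 libraries, adjusted p = 3.11e-15). The RGC level is read as background, so the size of this fold is uncertain. *Pou3f2* rose from 218 and 249.7 to 387 and 425 CPM (log2 FC 0.85 ± 0.14, adjusted p = 1.31e-05). *Pou3f3* rose from 282 and 259.5 to 379.6 and 427 CPM (log2 FC 0.63 ± 0.12, adjusted p = 6.88e-05). *Pou3f4* fell from 33.7 and 26.5 to 20.1 and 18.1 CPM (log2 FC -0.60 ± 0.21, adjusted p = 0.0305), and this call was lost without the filter on low counts and in thinned cells. The libraries of the 2 classes did not overlap for any of the 4 genes. The share of all genes without overlap was not counted, so this is a description only.

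Between IPCs and migrating neurons, 2 of the 4 members were called, against 20% of all genes (9.02% higher and 11% lower). *Pou3f1* rose again, from 117 and 124 to 287 and 261 CPM (log2 FC 1.22 ± 0.14, adjusted p = 2.94e-08). *Pou3f3* rose from 379.6 and 427 to 558 and 510.0 CPM (log2 FC 0.45 ± 0.12, adjusted p = 0.00621), a call that thinned cells did not give. *Pou3f2* was at 529 and 379 CPM in migrating neurons, and the libraries went in opposite directions against IPCs (log2 FC 0.19 ± 0.14, adjusted p = 0.411). *Pou3f4* gave a log2 FC of -0.24 ± 0.33 (adjusted p = 0.686). From migrating to upper-layer neurons, 0 of 4 members were called, against 10.2% of all genes (6.23% higher and 3.98% lower). The smallest unadjusted p was 0.0643, for *Pou3f3*, and DESeq2 also called 0. The log2 FCs were -0.03 ± 0.12 for *Pou3f1*, -0.26 ± 0.14 for *Pou3f2*, -0.22 ± 0.12 for *Pou3f3* and -0.49 ± 0.33 for *Pou3f4*. With no *Zbtb20* gate, those cells were sorted by the markers of migrating and layer neurons, so both classes compared could change. *Pou3f1* was then called higher by edgeR in upper-layer than in migrating neurons (log2 FC 0.29, adjusted p = 0.0411).

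The layers were compared next, since *Pou3f2* and *Pou3f3* are known from upper-layer neurons and *Pou3f1* from layer 5. Deep-layer neurons are the mean of the layer 5 and layer 6 classes on the log scale. *Pou3f1*, *Pou3f2* and *Pou3f3* were higher in upper-layer neurons, 3 of 4 members against 15.3% of all genes (7.78% higher and 7.50% lower). *Pou3f2* had the largest difference, with 400.3 and 330.5 CPM in upper-layer against 126 and 143 CPM in layer 5 and 56.5 and 60.3 CPM in layer 6 neurons (log2 FC 2.05 ± 0.13, adjusted p = 8.06e-14). *Pou3f3* was at 460.2 and 429 CPM against 189.7 and 188 CPM in layer 5 and 112 and 148 CPM in layer 6 neurons (log2 FC 1.51 ± 0.10, adjusted p = 2.14e-13). *Pou3f1* was at 259.7 and 259 CPM against 235 and 220.5 CPM in layer 5 and 35.2 and 62.7 CPM in layer 6 neurons. Its log2 FC was 1.30 ± 0.11 (adjusted p = 5.34e-11), with layer 5 levels near the upper-layer ones. *Pou3f4* was at 6.43 to 11.96 CPM in all 3 classes (log2 FC 0.38 ± 0.26, adjusted p = 0.391).

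Within the deep layers, *Pou3f1* set layer 5 apart from layer 6. It was at 235 and 220.5 CPM in layer 5 neurons, close to upper-layer neurons, and at 35.2 and 62.7 CPM in layer 6 neurons (log2 FC 2.25 ± 0.17, adjusted p = 3.17e-11). *Pou3f2* (log2 FC 1.27 ± 0.22, adjusted p = 0.000151) and *Pou3f3* (log2 FC 0.59 ± 0.15, adjusted p = 0.0126) were also higher in layer 5, making 3 of 4 members against 7.56% of all genes (3.98% higher and 3.58% lower). With no *Zbtb20* gate only the *Pou3f1* call was left. *Pou3f2* then gave a log2 FC of 0.46 (adjusted p = 0.112) and *Pou3f3* of 0.27 (adjusted p = 0.247). Thinned cells did not give the *Pou3f3* call either (adjusted p = 0.302). *Pou3f4* gave 0.79 ± 0.45 (adjusted p = 0.356).

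*Zbtb20*-high neurons had 414 and 359 CPM of *Pou3f2* and 452 and 415 CPM of *Pou3f3*. Their log2 FCs against upper-layer neurons were 0.03 ± 0.12 (95% interval -0.21 to 0.27) and -0.09 ± 0.10 (95% interval -0.29 to 0.11). *Pou3f1* was lower, at 188 and 189.8 against 259.7 and 259 CPM (log2 FC -0.51 ± 0.10, adjusted p = 0.000396). This was 1 of 4 members, against 17.7% of all genes (9.60% higher and 8.09% lower). *Pou3f4* gave 0.35 ± 0.17 (adjusted p = 0.174).

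**Figure D2:**
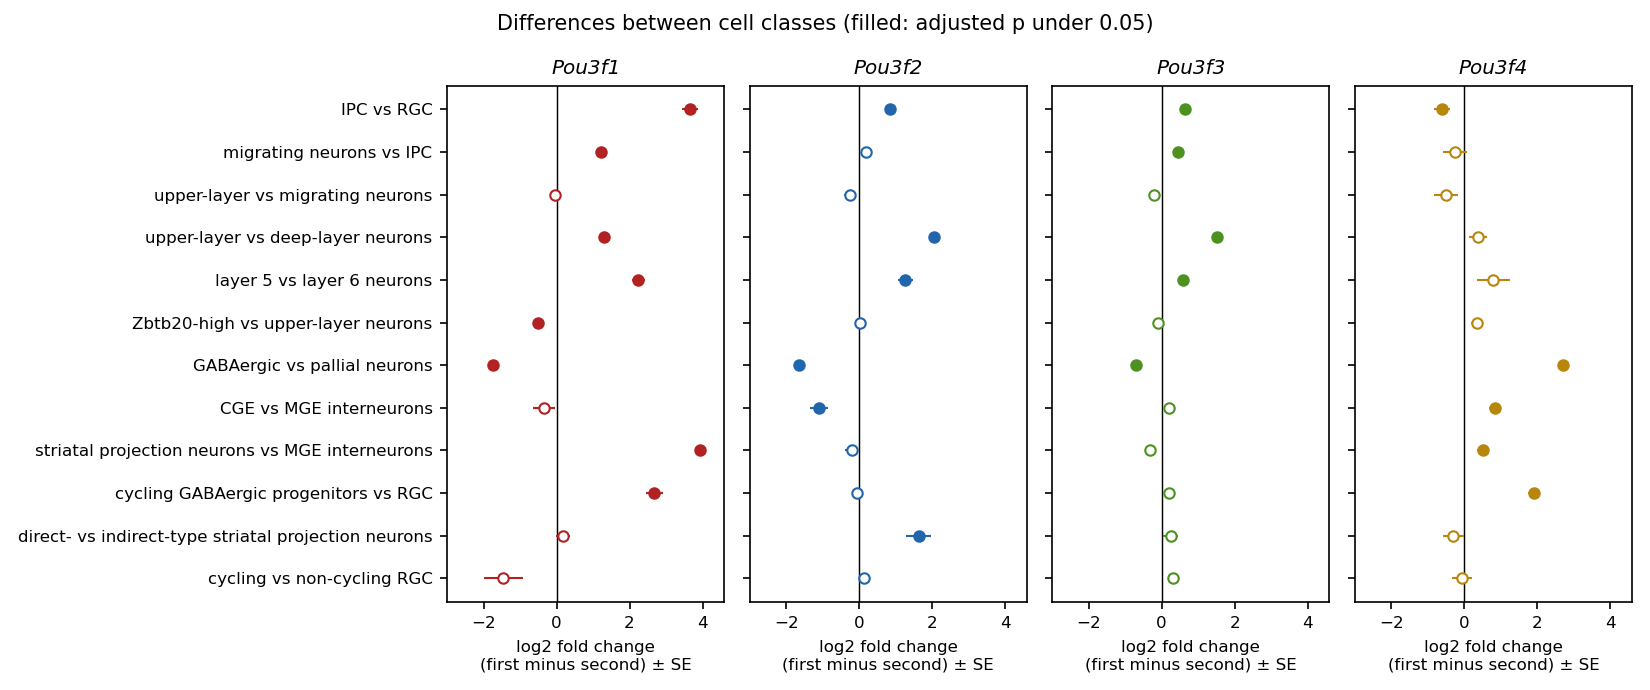
Log2 fold changes of the 4 genes in 12 comparisons between cell classes, first class minus second, with the SE of the fit (n = 2 libraries). Filled points passed an adjusted p of 0.05. *Pou3f1* has the widest range, from 3.94 in striatal neurons against MGE interneurons to -1.76 in GABAergic against pallial neurons, and *Pou3f4* is highest in GABAergic against pallial neurons at 2.72.

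GABAergic neurons, the mean of the MGE, CGE, LGE-type and striatal classes, were then set against the mean of the migrating, upper-layer, layer 5 and layer 6 classes, both on the log scale. All 4 members differed, against 37.6% of all genes (19.7% higher and 17.9% lower), and *Pou3f4* went against the other 3. It was higher in GABAergic neurons, with class means of 75.8 and 71.2 CPM against 9.72 and 11.7 CPM (log2 FC 2.72 ± 0.12, adjusted p = 2.94e-18). *Pou3f2* was lower, with class means of 69.7 and 60.6 against 278 and 228 CPM (log2 FC -1.64 ± 0.10, adjusted p = 1.23e-14). *Pou3f3* was lower by less, with class means of 198 and 162 against 329.98 and 319 CPM (log2 FC -0.70 ± 0.07, adjusted p = 3.98e-10). *Pou3f1* was lower on average (log2 FC -1.76 ± 0.10, adjusted p = 2.40e-16), but the average hides a split. Striatal neurons lay above every pallial class, while MGE, CGE and LGE-type cells lay at 16.4 to 47.8 CPM. Without the striatal class the *Pou3f1* log2 FC was -2.69. The 7 genes of the GABAergic gate summed to 13.8 to 37.8 CPM in IPCs and the 4 pallial classes and to 1661 to 3858 CPM in the 4 GABAergic classes. The 7 genes of the pallial gate summed to 51.5 to 84.9 CPM in the latter, with no gene of either list at 0. The part of such shared counts in the low values was not tested.

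Among interneurons, *Pou3f2* and *Pou3f4* separated the eminences in opposite directions, 2 of 4 members against 5.86% of all genes (2.66% higher and 3.20% lower). *Pou3f2* was at 41.8 and 38.5 CPM in CGE and 106 and 71.6 CPM in MGE interneurons (log2 FC -1.10 ± 0.25, adjusted p = 0.00277). CGE levels are read as background, and MGE levels lay above the non-neural maximum only without marked doublets. *Pou3f4* was at 87.5 and 77.0 CPM in CGE and 54.3 and 39.7 CPM in MGE interneurons (log2 FC 0.84 ± 0.17, adjusted p = 0.00110), a call that thinned cells did not give (adjusted p = 0.164). *Pou3f3* (log2 FC 0.21 ± 0.13, adjusted p = 0.509) and *Pou3f1* (log2 FC -0.33 ± 0.30, adjusted p = 0.688) were not called.

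*Pou3f1* marked striatal projection neurons, the principal cells of the striatum, among GABAergic types. It was at 379 and 337 CPM against 26.0 and 21.3 CPM in MGE interneurons (log2 FC 3.94 ± 0.15, adjusted p = 1.69e-19), and the MGE level is read as background. *Pou3f4* was called higher at 61.3 and 67.7 against 54.3 and 39.7 CPM (log2 FC 0.51 ± 0.15, adjusted p = 0.0212), but not by DESeq2, under stricter gates, under a lower limit on UMIs of the other lineage or in deeper or thinned cells. The log2 ratio was 0.18 in replicate 1 and 0.79 in replicate 2. These were 2 of 4 members, against 12.9% of all genes (6.55% higher and 6.38% lower). *Pou3f2* gave -0.20 ± 0.18 (adjusted p = 0.570) and *Pou3f3* -0.32 ± 0.13 (adjusted p = 0.0998). Striatal cells with more markers of the direct type (235 and 336 cells) had 99.3 and 84.2 CPM of *Pou3f2*. Those with more of the indirect type (46 and 80 cells) had 23.7 and 30.3 CPM, resting on 5 and 13 UMIs. Both types lay under the non-neural maximum with doublets kept. The indirect-type levels also lay under the maximum of 43.3 CPM found without marked doublets, so the size of the fold between the types is uncertain. The log2 FC was 1.63 ± 0.34 (adjusted p = 5.21e-05), but DESeq2 did not call it (adjusted p = 0.247). It was 1 of 4 members, against 5.37% of 9372 genes (2.82% higher and 2.55% lower). *Pou3f1* was at 393 and 334 CPM in direct-type and 323 and 300.3 CPM in indirect-type cells (log2 FC 0.17 ± 0.19, adjusted p = 0.828). *Pou3f3* (log2 FC 0.25 ± 0.21, adjusted p = 0.730) and *Pou3f4* (log2 FC -0.30 ± 0.28, adjusted p = 0.783) were not called.

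In progenitors, cycling GABAergic cells differed from RGCs in *Pou3f1* and *Pou3f4*, 2 of 4 members against 38.9% of all genes (19.8% higher and 19.1% lower). *Pou3f1* was at 56.7 and 68.7 against 9.32 and 10.3 CPM (log2 FC 2.68 ± 0.23, adjusted p = 3.26e-11), again over an RGC level read as background. *Pou3f4* was at 117 and 112 against 33.7 and 26.5 CPM (log2 FC 1.92 ± 0.16, adjusted p = 1.19e-11). *Pou3f2* (log2 FC -0.06, 95% interval -0.34 to 0.22) and *Pou3f3* (log2 FC 0.21, 95% interval -0.02 to 0.43) were not called. Within RGCs, cycling cells (123 and 149) and non-cycling cells (85 and 145) differed in 0 of 4 members, against 13.8% of 9762 genes (8.02% higher and 5.77% lower). In edgeR's quasi-likelihood test 2 members had an unadjusted p under 0.05, a threshold at which the share of all genes was not counted. *Pou3f1* was at 4.01 and 7.66 CPM in cycling against 19.0 and 13.9 CPM in non-cycling RGCs (log2 FC -1.46 ± 0.53, adjusted p = 0.0795), all within its non-neural range. *Pou3f3* was at 315 and 267 against 222 and 249 CPM (log2 FC 0.30 ± 0.12, adjusted p = 0.128). *Pou3f2* gave 0.12 ± 0.12 (adjusted p = 0.569) and *Pou3f4* -0.05 ± 0.27 (adjusted p = 0.934). DESeq2 called 0, but *Pou3f1* was called with DESeq2 size factors (log2 FC -1.46, adjusted p = 0.0432) and without doublets (log2 FC -1.55, adjusted p = 0.0373), and *Pou3f3* with no filter on low counts (log2 FC 0.38, adjusted p = 0.0185). *Pou3f1* rested there on 5 and 9 UMIs in cycling RGCs.

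The make-up of the family differed between classes. *Pou3f1* took 1.72% and 1.89% of the 4 genes' UMIs in RGCs, 13.0% and 12.5% in IPCs, 23.0% and 25.1% in upper-layer, 41.9% and 39.1% in layer 5 and 55.6% and 54.4% in striatal neurons. *Pou3f2* took 40.1% and 45.7% in RGCs and 10.4% and 11.9% in CGE interneurons. *Pou3f3* took 62.8% and 59.1% in CGE and 53.4% and 56.5% in MGE interneurons, and 53.3% in layer 6 neurons of both libraries. *Pou3f4* took 27.7% and 29.0% in LGE-type cells and 0.966% and 1.03% in upper-layer neurons. All 4 genes together were highest in migrating neurons at 1277 ± 155 CPM (SD, n = 2) and lowest in Cajal-Retzius cells at 66.1 ± 14.2 CPM. In thinned cells, at least 2 members were seen in 44.8% ± 2.59 of migrating neurons, 29.5% ± 0.0733 of IPCs, 11.04% ± 0.703 of RGCs and 5.71% ± 1.93 of MGE interneurons.

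**Figure D3:**
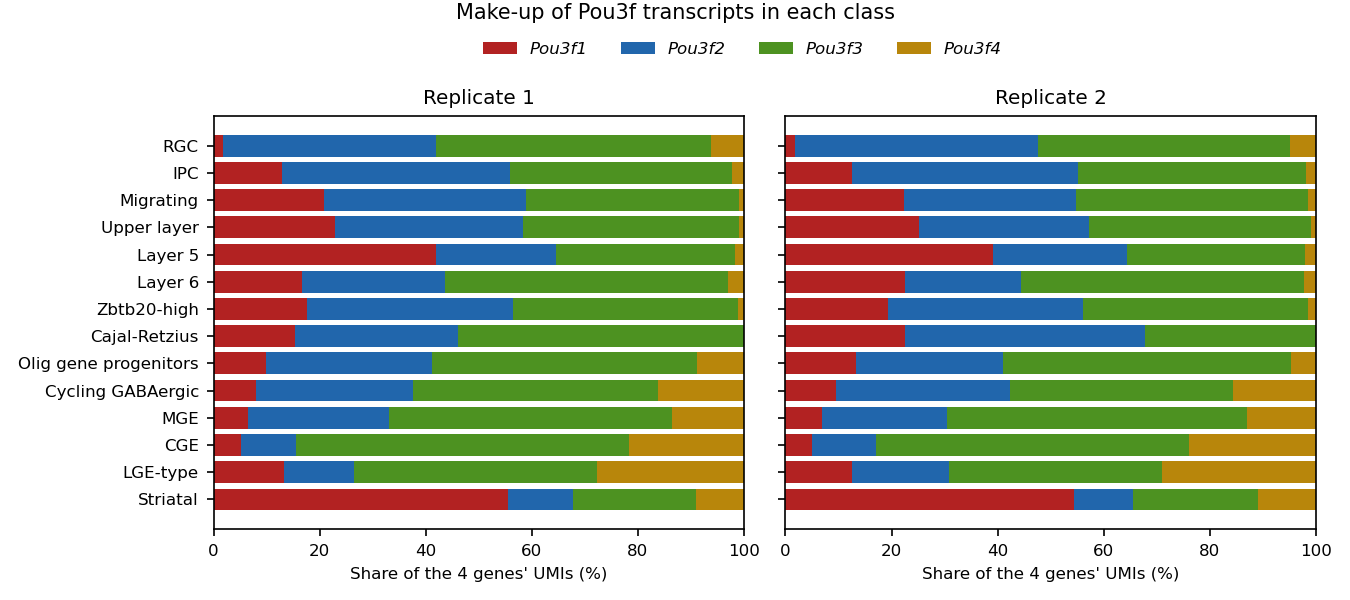
Share of each gene (%) in the UMIs of the 4 *Pou3f* genes, by neural class, for each library. *Pou3f1* takes 55.6% and 54.4% in striatal neurons and under 2% in RGCs, and *Pou3f4* takes most in LGE-type cells at 27.7% and 29.0%.

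Across the 28 sums of class and library, *Pou3f2* and *Pou3f3* followed each other most closely, with a Pearson correlation of log2(CPM + 1) of 0.86 (0.89 and 0.84 within each library). The sums share 2 libraries and differ in depth, and these values are a description. Without the Cajal-Retzius sums, which held the lowest levels, it was 0.89 over 26 sums. For *Pou3f3* and *Pou3f4* the correlation was 0.46 over all sums and -0.26 without the Cajal-Retzius sums, and for *Pou3f1* and *Pou3f4* it was 0.04 and -0.39.

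The genes most like each member, among 7213 with a mean of at least 20 CPM, included lncRNA genes of the same loci. *Gm2164*, on the opposite strand, starts 159 bases before *Pou3f1* in RefSeq. It ranked first for *Pou3f1* (r = 0.91, and first at 0.89 without the Cajal-Retzius sums). It was at 123 and 114 CPM in striatal neurons, 105 and 101 CPM in upper-layer neurons, 12.5 and 17.7 CPM in IPCs and 2.59 and 8.34 CPM in RGCs. Its level in migrating neurons, 40.0 and 49.2 CPM, was below that in layer 5 neurons, 87.7 and 65.0 CPM, unlike that of *Pou3f1*.

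For *Pou3f3* the 5 genes were *Gm28175* (r = 0.93), *Pantr1* (r = 0.89), *Paip1* (r = 0.87), *Pou3f2* (r = 0.86) and *Pantr2* (r = 0.86). *Gm28175* starts at chr1:42257852 and ends 385758 bases before *Pou3f3*. In RefSeq, *Pantr1* (linc-Brn1a) and *Pantr2* (linc-Brn1b) do not overlap *Pou3f3* as they do in GENCODE M39. *Pantr1*, on the opposite strand, starts 943 bases before *Pou3f3*, and *Pantr2* lies 6851 bases beyond the end of *Pou3f3*. Without the Cajal-Retzius sums *Gm28175*, *Pou3f2* and *Pantr1* ranked 1, 2 and 3, while *Pantr2* fell to rank 106 and *Paip1*, which encodes a translation factor, to rank 98. *Pantr1* was at 1230 and 1135 CPM in migrating neurons, 1096 and 1246 CPM in IPCs, 861 and 907 CPM in RGCs and 147 and 188 CPM in layer 6 neurons. *Pantr2* was higher in RGCs (44.5 and 49.5 CPM) than in upper-layer neurons (16.5 and 20.1 CPM), the reverse of *Pou3f3*.

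**Figure D4:**
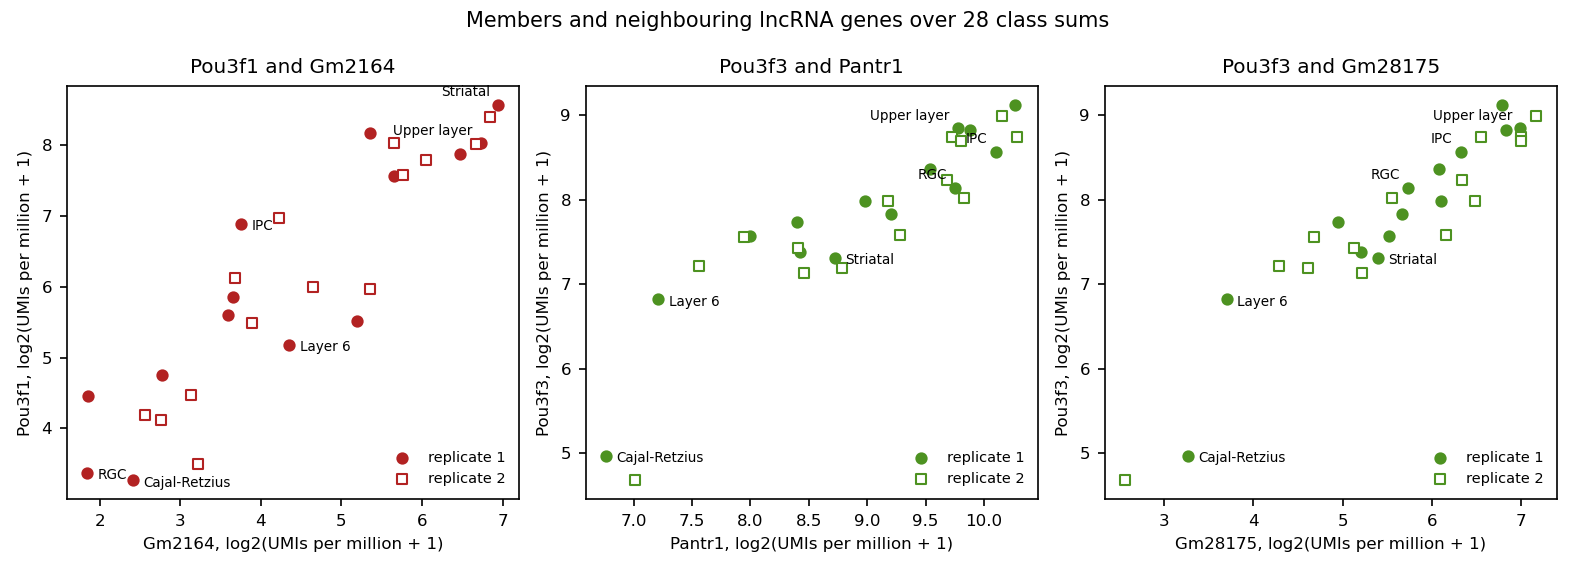
Levels of *Pou3f1* and *Pou3f3* against lncRNA genes of their loci, as log2(CPM + 1), over 28 sums of class and library. Filled circles are replicate 1 and open squares replicate 2. The points rise together, with r = 0.91 for *Gm2164*, 0.89 for *Pantr1* and 0.93 for *Gm28175*, and the Cajal-Retzius sums lie apart at the lower end for *Pou3f3*.

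Other compared genes within 500 kb did not rank near *Pou3f1* or *Pou3f3*. For *Pou3f2* only 1 neighbour could be compared, and for *Pou3f4* 0. For *Pou3f1*, 7 of 8 compared neighbours ranked 1307 or further down, and *Utp11*, 17577 bases away, had r = 0.0038. For *Pou3f3* the protein-coding neighbours *Mrps9* (r = 0.12) and *Gpr45* (r = -0.05) ranked 2800 and 4118. This comparison with neighbours was chosen after the likeness ranks were seen. *Pnky*, listed as *Gm30731*, lies 2182 bases upstream of *Pou3f2* in RefSeq and is known as a neural lncRNA. It had 267 UMIs in all neural classes, too few for a comparison, with 6.73 and 4.42 CPM in RGCs and no UMI in layer 5 neurons or CGE interneurons.

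For *Pou3f2* the most similar genes were *Nfyb*, a subunit of the CCAAT-binding factor NF-Y (r = 0.87), *Pou3f3* (r = 0.86), *Apex1*, a DNA repair enzyme (r = 0.86), *Lmo1*, a LIM-only cofactor (r = 0.85) and *Pantr1* (r = 0.84). Without the Cajal-Retzius sums *Pou3f3* ranked 3 and the other 4 ranked 10 to 37. For *Pou3f1*, *Gm2164* was followed by *Atrnl1* (r = 0.83), *Prmt1*, an arginine methyltransferase (r = 0.81), *Frmd6* (r = 0.79) and *Fra10ac1* (r = 0.78). For *Pou3f4* they were *Kat2b*, a histone acetyltransferase (r = 0.89), *Yes1*, a Src-family kinase (r = 0.89), *Meis1*, a homeobox gene (r = 0.88), *Chsy1* (r = 0.88) and *Dlx2* (r = 0.86), which is a gate gene. Without the Cajal-Retzius sums, *Dlx2* and *Meis1* ranked 3 and 4 for *Pou3f4* (r = 0.92 and 0.91), and *Kat2b*, *Yes1* and *Chsy1* ranked 35 to 94.

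The list values that follow are log2 FCs with their SE, and every gene named with one passed an adjusted p of 0.05 in edgeR. The percentage beside a list median is the share of all genes called in that comparison. Of 12 other genes, POU genes and the POU coactivator *Pou2af1*, 6 passed the filter on low counts. Against RGCs, 3 were higher in IPCs and 1 lower (list median log2 FC 0.72), where 30.7% of all genes were called, led by *Pou6f1* (log2 FC 1.24 ± 0.18) and *Pou2f2* (1.19 ± 0.38). The median over all genes lay between -0.05 and 0.09 in every comparison. In cycling GABAergic progenitors against RGCs, 4 were higher and 0 lower (median 0.95, 38.9% of all genes called), with *Pou2f2* at 2.32 ± 0.31 and *Pou6f1* at 1.41 ± 0.17. In GABAergic against pallial neurons, 3 were higher and 0 lower (median 0.22, 37.6% of all genes called), among them *Pou2f1* (1.04 ± 0.07) and *Pou2f2* (0.37 ± 0.12). The counts were 1 higher and 1 lower in migrating neurons against IPCs (median 0.35, 20% of all genes called) and in layer 5 against layer 6 (median -0.51, 7.56%), and 2 higher in upper-layer against deep-layer (median 0.24, 15.3%) and in *Zbtb20*-high against upper-layer neurons (median 0.25, 17.7%). There was none between upper-layer and migrating neurons (median -0.13, 10.2%) or CGE and MGE interneurons (median -0.02, 5.86%), and 1 of 3 in cycling against non-cycling RGCs (median 0.19, 13.8%), *Pou2f2*.

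A second list held 13 genes known as partners or targets of these factors, all tested in the 10 main comparisons. From RGCs to IPCs, 5 rose and 5 fell (median -0.14), where 30.7% of all genes were called. *Fabp7*, a fatty acid binding protein of radial glia, fell (log2 FC -3.66 ± 0.31) and *Myt1l* rose (3.48 ± 0.33), as did *Sox11* (2.62 ± 0.13), while *Nes* fell (-2.46 ± 0.18). From IPCs to migrating neurons, 5 rose and 7 fell (median -0.95, 20% of all genes called), with *Sox3* at -4.28 ± 0.80 and *Myt1l* at 3.07 ± 0.22. *Dab1*, the adaptor of reelin signalling, led from migrating to upper-layer neurons (2.38 ± 0.21), where 3 rose and 3 fell (median 0.60, 10.2%). Of the 13, 2 were higher and 1 lower in upper- against deep-layer neurons (median 0.30, 15.3%), 0 between layers 5 and 6 (median 0.03, 7.56%), and 4 higher and 3 lower in *Zbtb20*-high against upper-layer neurons (median 0.15, 17.7%), led by *Zic1* (3.34 ± 0.26). In GABAergic against pallial neurons 5 were higher and 4 lower (median 0.17, 37.6%), with *Sox1* at 4.74 ± 0.17 and *Dab1* at -3.31 ± 0.11. Striatal neurons against MGE interneurons had 1 higher and 3 lower (median -0.34, 12.9%), led by *Sox1* (-1.16 ± 0.15), and cycling GABAergic progenitors against RGCs had 6 higher and 4 lower (median 1.93, 38.9%). In direct- against indirect-type cells 3 of 9 were higher and 1 lower (median 0.56, 5.37%), led by *Sox1* (3.03 ± 0.48), and in cycling against non-cycling RGCs *Fabp7* was the only call of 11 (-0.28 ± 0.08, list median -0.15, 13.8%).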

How the data were processed

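Single-cell RNA sequencing (10x Genomics 3′ v3.1) was made of 2 WT cortex libraries at E16.5. The authors deposited raw UMI counts per gene and barcode. The labels name Cell Ranger 7.0.0 and the file header 7.1.0, with mm10 as the build. The gene annotation and strand setting are not given in the sources used here.

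Barcodes with 1500 to 60000 UMIs and under 10% mitochondrial UMIs were kept and sorted by marker gates. A class needed at least 2 distinct markers of its list, and UMIs of the other lineage could be at most 25% of the lineage UMIs. Cells marked as likely doublets by Scrublet in scanpy 1.11.5 (427 and 1142) were not removed. Raw UMIs were summed per class and library, giving 28 sums of 14 classes. Intervals are exact at 95% and cover counting error only, and a count of 0 allows 3 counts.

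Sums were fitted together by edgeR 4.0.16 in R 4.3.3 (TMM, quasi-likelihood test, library as a block) over genes that reached 10 counts in 2 or more sums. The splits of striatal cells and of RGCs were fitted on their own 4 sums. Benjamini-Hochberg adjustment covered all genes tested, with 0.05 as the threshold. The library block was kept because all classes of a library come from the same sample. Over 91 pairs of classes, deviations of the same library correlated at -0.03 to 0.41 (median 0.13).

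The 4 members were named in every comparison. Of the 2 lists, up to 4 called genes with the largest fold change and at least 10 CPM were named, and the 5 genes most correlated with each member. The members, lists and gates were chosen with earlier results of these data known. Alternatives were DESeq2 1.42.0, DESeq2 size factors, no filter on low counts, no library block, stricter gates, a 10% other-lineage limit, removal of doublets, cells with at least 3000 UMIs, thinning to 1500 UMIs and each library alone. The fits with no *Zbtb20* gate and without the striatal class, and the non-neural reference without doublets, were chosen after seeing the data. Results for some list genes are not reported here.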

Additional observations from a re-analysis of the deposited data

How the results depend on the processing

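Under other settings fitted to both libraries, 429 fold changes of the members kept their direction and side of the threshold, 13 lost a call, 4 gained one with the same sign and 12 changed sign, 1 of them with a call gained. Of the counts of called members, 103 stayed within 1.5 times, 8 were lower and 4 higher. The cause of the changes below was not tested. The fit with no replicate block changed no call of a member, and for *Pou3f1* in IPCs against RGCs the block gave 3.66 and no block 3.66 (adjusted p = 3.58e-14 in edgeR). It called 854 genes in place of 1116 between layers 5 and 6.

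Thinned to 1500 UMIs, cells gave 1 call in migrating neurons against IPCs, with *Pou3f2* at -0.035, *Pou3f3* at 0.41 and *Pou3f4* at 1.20. They gave 1 call in CGE against MGE interneurons, with *Pou3f4* at 0.72. They gave *Pou3f4* at -1.11 in IPCs against RGCs, *Pou3f3* at 0.59 in layer 5 against 6, and *Pou3f4* at 0.15 in direct- against indirect-type cells. In striatal neurons against MGE interneurons they gave *Pou3f2* at 0.14, *Pou3f3* at -0.46, now called, and *Pou3f4* at 0.55. There *Pou3f4* was not called either by DESeq2 (0.47), with stricter gates (0.36), with the 10% limit (0.41) or with at least 3000 UMIs (0.36), leaving 1 call each. DESeq2 gave *Pou3f2* at 1.67 and 0 calls in direct- against indirect-type cells.

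With no filter on low counts, *Pou3f4* in IPCs against RGCs was -0.58, *Pou3f1* in upper-layer against migrating neurons 0.072, *Pou3f2* in GABAergic progenitors against RGCs 0.020, and in cycling RGCs *Pou3f3* was 0.38, the 1 call, and *Pou3f4* 0.033. With no *Zbtb20* gate, *Pou3f1* was 0.29 in upper-layer against migrating neurons, the 1 call there, and *Pou3f2* was 0.46 and *Pou3f3* 0.27 in layer 5 against 6, which left 1 call. Stricter gates gave *Pou3f2* at -0.032 in *Zbtb20*-high against upper-layer neurons and 0.0055 in GABAergic progenitors against RGCs, where removal of doublets gave 0.015. The 10% limit gave *Pou3f1* at 0.023 in CGE against MGE interneurons. *Pou3f1* in cycling RGCs was called, as the 1 member, with DESeq2 size factors (-1.46) and without doublets (-1.55).

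Each library alone, with no test, gave *Pou3f1* at 3.63 to 3.65 in IPCs against RGCs and 2.53 to 2.73 in GABAergic progenitors against RGCs. *Pou3f2* was 1.23 to 1.28 in layer 5 against 6, -1.66 to -1.65 in GABAergic against pallial neurons and -0.078 to -0.066 in GABAergic progenitors against RGCs. The libraries lay further apart for *Pou3f4* in striatal neurons against MGE interneurons (0.18 to 0.79), for *Pou3f1* (1.85 to 2.80) and *Pou3f3* (0.39 to 0.83) in layer 5 against 6, and for *Pou3f1* in cycling RGCs (-2.12 to -0.81). Without doublets *Pou3f4* lay above the non-neural maximum in 12 classes in place of 6. Thinning gave mean levels of *Pou3f1* in striatal neurons of 402 and *Pou3f4* in GABAergic progenitors of 119 CPM (120.3 without doublets). It gave shares of cells with a UMI of 31.4% for *Pou3f1* in striatal neurons, 43.0% for *Pou3f2* and 54.4% for *Pou3f3* in migrating neurons and 15.1% for *Pou3f4* in GABAergic progenitors. Low counts limit *Pou3f1* in RGCs and *Pou3f4* in excitatory neurons, and comparisons of 2 libraries have wide errors.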

Other observations

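GABAergic cells without a class (312 and 559 cells) had 175 and 139 CPM of *Pou3f1*, 83.5 and 65.8 CPM of *Pou3f2*, 185 and 165 CPM of *Pou3f3* and 100.4 and 84.6 CPM of *Pou3f4*. Their *Pou3f1* lay above the MGE, CGE and LGE-type classes and below the striatal class in both libraries. Pallial cells without a class (279 and 545 cells) had 269 and 252 CPM of *Pou3f1*, 318 and 287 CPM of *Pou3f2*, 371 and 364 CPM of *Pou3f3* and 15.4 and 12.6 CPM of *Pou3f4*. Cells that passed neither gate (834 and 1760 cells) had 121 and 133 CPM of *Pou3f1*, 218 and 245.5 CPM of *Pou3f2*, 304 and 293 CPM of *Pou3f3* and 29.7 and 32.8 CPM of *Pou3f4*.

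In cells thinned to 1500 UMIs, *Pou3f2* and *Pou3f3* were seen in the same cell 0.918 to 1.26 times as often as the product of their shares gives, with a median of 1.13 over 13 sums of named classes with at least 20 cells so predicted. For *Pou3f1* and *Pou3f2* the ratio was 0.860 to 1.36 over 6 sums, and for *Pou3f1* and *Pou3f3* it was 0.773 to 1.23 over 9 sums. For *Pou3f3* and *Pou3f4* a single sum reached that number, with a ratio of 0.790. Cells without a class are left out of these ranges. In those from the pallial gate the ratio for *Pou3f2* and *Pou3f3* was 1.38 and 1.33, and in those from neither gate it was 1.63 and 1.49. For *Pou3f3* and *Pou3f4* it was 1.35 in the cells from neither gate of replicate 2. Cells of a sum share their library, and these ratios are a description with no test.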
